A study of Mus musculus with 6 samples.

Results

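The immediate early response genes examined here are Fos, Fosb, Jun, Junb, Jund, Egr1, Atf3, Ier2, Ier3 and Myc, 10 genes taken by symbol from the 20673 genes of the deposited tables. All 10 were found, each under 1 Ensembl identifier. Their RNA was measured in bulk liver tissue of adult wild-type C57BL/6J mice fed RD, a standard rodent chow, or HCD, a diet with cocoa butter, added cholesterol and sodium cholate, for 3 days. Each diet had 3 livers with 1 library each, and no mouse had been made septic when its liver was taken. The mice of both diets carried no transgene or deletion. HCD held sodium cholate and more fat than RD beside its cholesterol, and the paper reports that mice on it ate modestly less. These parts of the feeding cannot be told apart here. Mice of both sexes entered the study, and the labels give no sex for a liver. Where 3 values follow a diet below, they are those of replicates 1, 2 and 3 in this order.

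Immediate early genes are switched on within minutes of a growth factor, cytokine or stress signal, before any new protein has to be made. MAP kinases, serum response factor and CREB act on their promoters, and most of their RNAs are short-lived. Fos and Jun family proteins pair through leucine zippers into the AP-1 transcription factor, Egr1 is a zinc finger factor, and Myc pairs with Max to drive growth genes. In liver they are known for the priming phase of regeneration and for their response to surgery, ischemia and tissue handling.

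The promoters of Fos, Jun, Junb and Atf3 are shown because AP-1 and ATF proteins are known to bind sites of this type, so that members of the group can act on one another's genes. RefSeq windows on GRCm38.p6 were found for 7 of the 10 genes, all but Egr1, Ier2 and Myc. The 250 bases before the start are printed 5′ to 3′. Capitals mark the TATA box letters TATAAA, the core TGACG of a cyclic AMP response element and the variant AP-1 site TGACATCA, each searched on both strands.
Fos, chr12:85473640-85473889, strand +: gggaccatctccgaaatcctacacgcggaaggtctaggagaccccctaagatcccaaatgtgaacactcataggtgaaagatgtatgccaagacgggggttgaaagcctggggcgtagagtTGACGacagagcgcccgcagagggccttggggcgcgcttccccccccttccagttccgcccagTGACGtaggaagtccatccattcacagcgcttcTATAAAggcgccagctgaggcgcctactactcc
Jun, chr4:95052223-95052472, strand -: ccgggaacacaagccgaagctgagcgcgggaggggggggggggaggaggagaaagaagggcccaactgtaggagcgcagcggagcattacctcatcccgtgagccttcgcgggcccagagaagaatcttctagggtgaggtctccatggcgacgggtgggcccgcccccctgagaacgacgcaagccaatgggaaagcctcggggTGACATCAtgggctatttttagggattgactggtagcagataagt
Junb, chr8:84978749-84978998, strand -: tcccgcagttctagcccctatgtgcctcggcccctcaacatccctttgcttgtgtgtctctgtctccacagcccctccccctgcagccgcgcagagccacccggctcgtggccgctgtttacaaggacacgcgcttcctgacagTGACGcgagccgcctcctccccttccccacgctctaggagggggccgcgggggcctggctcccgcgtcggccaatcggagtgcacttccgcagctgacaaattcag
Atf3, chr1:191183334-191183583, strand -: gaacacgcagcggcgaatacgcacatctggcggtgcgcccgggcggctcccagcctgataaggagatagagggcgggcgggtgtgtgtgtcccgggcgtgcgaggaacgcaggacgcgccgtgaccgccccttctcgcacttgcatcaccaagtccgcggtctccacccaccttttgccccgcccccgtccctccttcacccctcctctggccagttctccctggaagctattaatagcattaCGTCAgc
The Fos window held TATAAA 33 to 28 bases before the start and TGACG at 129 to 125 and at 66 to 62 bases. Jun held TGACATCA 45 to 38 bases before its start, Junb held TGACG at 106 to 102 bases, and Atf3 held TGACG on the opposite strand, written CGTCA, at 7 to 3 bases. The Atf3 window lies before a RefSeq start at 191183333, while its M21 gene begins at 191218039, so another annotated start lies outside the window. Of all 32851 windows of the same length, 12.4% held TATAAA, 17.8% held TGACG and 2.93% held TGACATCA. The full element TGACGTCA (1.55% of windows), the AP-1 letters TGACTCA or TGAGTCA (4.46%) and the CArG box (1.47%) were in none of the 7 windows, which says only that these letters are not in this stretch. The RefSeq start of Jund lies 1210 bases from the nearest M21 start, and its window is not shown, nor are those of Fosb and Ier3, which did not pass the filter on low counts. Fosb held TGACG at 60 to 56 bases before its start, and Ier3 and Jund held none of these letters.

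The diets were compared to see which of these genes differed between HCD and RD. Jund, the AP-1 subunit with the highest RNA level of the group, was the 1 gene that rose with HCD, and none fell; its call was lost in 12 of 16 alternative fits, among them every fit with 1 liver left out. Its mean rose from 38.5 ± 5.46 to 60.3 ± 2.29 CPM (SD, n = 3 for each diet), where CPM are a gene's counts relative to the library total after scaling with edgeR's TMM factors. Fos and Ier2 had higher means with HCD and Myc a lower mean, none past the threshold, and Jun, Junb, Egr1 and Atf3 differed by less than the spread between livers. The threshold for a call was an adjusted p of 0.05 in edgeR's quasi-likelihood test (two-sided), with p adjusted by Benjamini-Hochberg across the 13105 genes left by the filter on low counts. Of the 10 genes, 8 passed that filter and Fosb and Ier3 did not. Higher with HCD were 1 of these 8 and 1.95% of all genes tested, and called in either direction were 1 of the 8 and 3.27% of all genes. Lower with HCD were 0 of the 8 and 1.32% of all genes tested, where an unadjusted p under 0.05 put 1 of the 8 lower and DESeq2 put 0 of them lower. At an unadjusted p under 0.05, Jund, Ier2 and Fos were higher and Myc was lower, beside 11.1% and 9.81% of all genes tested. DESeq2 called Jund, Fos and Ier2 higher (adjusted p 0.0136, 0.0217 and 0.0331), where it called 4.01% of genes with an adjusted p higher, 3.19% lower and 7.20% in either direction. Without the filter on low counts, edgeR called Jund higher and Myc lower, where 1.76% of 20673 genes were higher and 1.38% lower. The median log2 fold change, HCD over RD, was 0.46 over the 8 genes and 0.007 over all genes tested, with 6 of the 8 above 0. Without HCD replicate 1 the median over the 8 was -0.27 and 3 of the 8 were above 0.

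**Figure D1:**
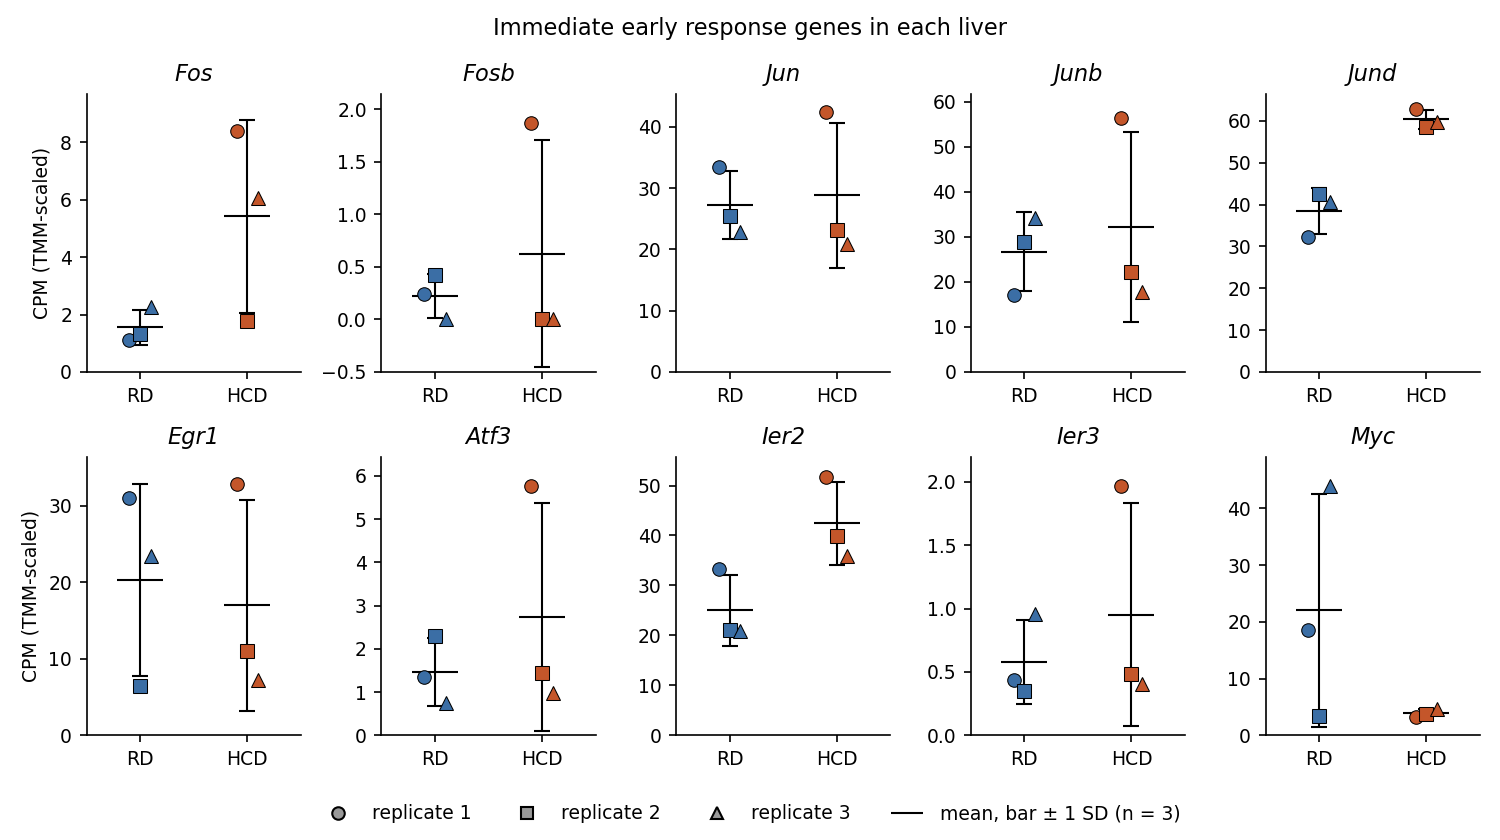
TMM-scaled CPM of the 10 genes in each liver, with 1 panel per gene and its own vertical axis. Symbols are single livers (circle, square and triangle for replicates 1, 2 and 3), lines are means and bars are 1 SD (n = 3); HCD replicate 1 is the highest liver in 9 of the 10 panels, and the diets separate only for Jund and Ier2.

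Levels of different genes were compared as FPKM, which the authors scaled by gene length. Jund had the highest mean over the 6 livers (43.7 FPKM, from 28.2 to 56.8), followed by Ier2 (32.7), Junb (18.9), Jun (12.9), Myc (7.05), Egr1 (6.15), Fos (2.21), Atf3 (1.44), Ier3 (1.01) and Fosb (0.101). The ranges over the 6 livers overlapped for every pair of neighbours in this order. Within a liver the order held in all 6 livers for Ier3 above Fosb. It held in 2 for Myc above Egr1, in 4 for Fos above Atf3, and in 5 for each of the other 6 pairs.

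Fos and Fosb encode the AP-1 subunits that cannot pair with themselves. Fos (ENSMUSG00000021250, chromosome 12 of GRCm38 from 85473890 to 85477273, plus strand) was at 1.11, 1.33 and 2.26 CPM with RD and at 8.39, 1.79 and 6.08 CPM with HCD. HCD replicates 1 and 3 stood above every RD liver, while HCD replicate 2 lay below RD replicate 3, so the diets overlapped. The Fos log2 fold change was 1.79 (standard error 0.57, adjusted p = 0.129 in edgeR's test), and an exact two-sided permutation test of log2(CPM + 0.5) gave p = 0.2, with 0.1 the smallest p that 3 livers against 3 allow. The fit without HCD replicate 2 brought Fos past the threshold (log2 fold change 2.20, adjusted p = 0.0437), while without HCD replicate 1 it was 1.31 (adjusted p = 0.277). Fosb (ENSMUSG00000003545, chromosome 7 from 19302696 to 19310051, minus strand) had 5, 6 and 0 counts with RD and 37, 0 and 0 counts with HCD. Most Fosb reads thus came from 1 liver, and in the livers without a count up to 0.13 CPM (RD replicate 3), 0.207 CPM (HCD replicate 2) and 0.243 CPM (HCD replicate 3) would fit 3 counts, which covers counting error only.

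Jun, Junb and Jund encode the subunits that pair with Fos proteins or among themselves; Jun is the strong activator, and Jund is the form kept at a steady level in resting cells. Jund (ENSMUSG00000071076, chromosome 8 from 70698949 to 70700616, plus strand, 1 exon) was at 32.3, 42.6 and 40.7 CPM with RD and at 62.9, 58.5 and 59.7 CPM with HCD. The 3 HCD livers lay above all RD livers and within 1.08-fold of each other. The diets did not overlap for Jund and Ier2, both with HCD above RD, 2 of the 8 genes beside 14.0% of all genes tested. The Jund log2 fold change was 0.65 (standard error 0.14, adjusted p = 0.049 in edgeR's test), and the exact permutation p was 0.1, the smallest possible here. The Jund difference kept its sign in every alternative, from 0.40 to 0.73, and lost its call whichever liver was left out (adjusted p 0.0776 to 0.19), with library sizes alone, in both limma-trend fits, under the replicate block and after removal of a trend with gene length or GC content. Jund has the highest GC content of the 10 genes (67.1%), and removing the GC trend moved its log2 fold change to 0.40 (adjusted p = 0.163). Jund also shares exonic bases with the antisense gene Gm11175, not analysed here, so that reads of either strand cannot be told apart.

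Junb (ENSMUSG00000052837, chromosome 8 from 84974484 to 84978718, minus strand) was at 17.0, 28.9 and 34.2 CPM with RD and at 56.4, 22.2 and 17.8 CPM with HCD. HCD replicate 1 was 2.82-fold above the mean of the other HCD livers, which lay within the RD range. The Junb log2 fold change was 0.28 (standard error 0.43, adjusted p = 0.756), and -0.41 without HCD replicate 1 (adjusted p = 0.465). Annotated exons of Junb overlap those of Prdx2 on the opposite strand, and no source used here says that the counting used strand, so reads of the pair cannot be told apart; Prdx2 was at 90.8 to 103 CPM with RD and at 97.7, 139 and 152 CPM with HCD. Jun (ENSMUSG00000052684, chromosome 4 from 95049034 to 95052222, minus strand, 1 exon) was at 33.4, 25.4 and 22.8 CPM with RD and at 42.4, 23.2 and 20.9 CPM with HCD. Its highest liver was again HCD replicate 1 and its lowest HCD replicate 3. The Jun log2 fold change was 0.09 (standard error 0.28, adjusted p = 0.883), and -0.30 without HCD replicate 1 (adjusted p = 0.44). Jun shares exonic bases with Junos on the other strand, which stayed under 1 CPM in every liver (0.138 to 0.892).

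Of the summed FPKM of the 3 Jun genes, Jund held 52.1%, 55.4% and 52.6% in the RD livers and 49.9%, 67.4% and 71.4% in the HCD livers. Its share was thus above all RD livers in HCD replicates 2 and 3 and below them in HCD replicate 1, and the mean shares, 53.4% ± 1.78 and 62.9% ± 11.4 (SD, n = 3), did not differ beyond that spread (exact two-sided permutation test, p = 0.4). The sum itself was 54.1 to 69.3 FPKM with RD, 75.2 and 75.1 FPKM in HCD replicates 2 and 3, and 114 FPKM in HCD replicate 1.

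Atf3 encodes a stress-induced factor that pairs with Jun proteins, and Ier2 and Ier3 encode small nuclear and membrane-associated proteins named for their early induction. Ier2 (ENSMUSG00000053560, chromosome 8 from 84661331 to 84662852, minus strand, 1 exon) was at 33.2, 21.1 and 20.8 CPM with RD and at 51.7, 39.8 and 35.8 CPM with HCD. Every HCD liver lay above every RD liver, although HCD replicate 3 was close to RD replicate 1. The Ier2 log2 fold change was 0.76 (standard error 0.22, adjusted p = 0.106 in edgeR's test; exact permutation p = 0.1), and 0.60 to 1.02 with any 1 liver left out. Atf3 (ENSMUSG00000026628, chromosome 1 from 191170296 to 191218039, minus strand) was at 1.35, 2.30 and 0.738 CPM with RD and at 5.76, 1.45 and 0.973 CPM with HCD. HCD replicate 1 alone stood above the RD range, 4.76-fold above the mean of the other HCD livers. The Atf3 log2 fold change was 0.94 (standard error 0.73, adjusted p = 0.495) with all livers and -0.25 (adjusted p = 0.868) without that one. Ier3 (ENSMUSG00000003541, chromosome 17 from 35821684 to 35822923, plus strand) had 9, 5 and 22 counts with RD and 39, 7 and 5 counts with HCD, with the highest value again in HCD replicate 1.

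Egr1 and Myc had the widest spread between livers of RD among the 8 genes. Egr1 (ENSMUSG00000038418, chromosome 18 from 34859823 to 34864984, plus strand) was at 31.0, 6.49 and 23.4 CPM with RD and at 32.8, 11.0 and 7.21 CPM with HCD. Livers of either diet fell into high values (RD replicates 1 and 3, HCD replicate 1) and low values, 4.78-fold apart within RD and 4.54-fold within HCD. The Egr1 log2 fold change was -0.25 (standard error 0.63, adjusted p = 0.855), -1.16 without HCD replicate 1 (adjusted p = 0.299), 0.19 without RD replicate 1 and 0.10 without HCD replicate 3. Myc (ENSMUSG00000022346, chromosome 15 from 61985391 to 61990374, plus strand) was at 18.6, 3.42 and 44.0 CPM with RD and at 3.23, 3.72 and 4.62 CPM with HCD. The HCD livers were alike, within 1.43-fold, and RD replicate 2 lay among them, while RD replicates 1 and 3 were far above. The Myc log2 fold change was -2.53 (standard error 0.73, adjusted p = 0.102 in edgeR's test; exact permutation p = 0.3). It was past the threshold without RD replicate 2 (-3.03, adjusted p = 0.0261) and without a filter on low counts (-2.54, adjusted p = 0.0226), and it was -2.41 without HCD replicate 1 (adjusted p = 0.179) and -1.53 without RD replicate 3 (adjusted p = 0.233).

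**Figure D2:**
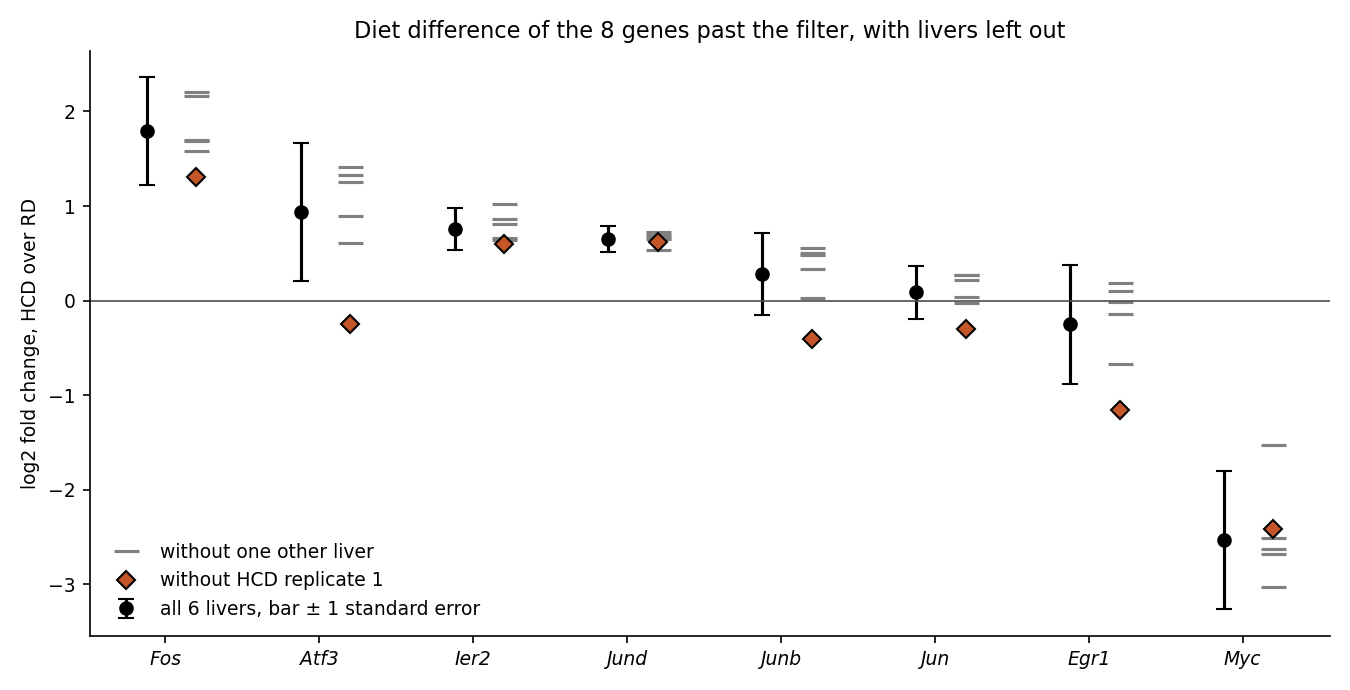
Log2 fold change of HCD over RD for the 8 genes past the filter, from edgeR. Black points are fits with all 6 livers and bars are 1 standard error; the orange diamond leaves out HCD replicate 1 and each grey dash leaves out 1 other liver, and without HCD replicate 1 the values of Atf3, Junb and Jun lie below 0 (-0.25, -0.41 and -0.30).

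HCD replicate 1 stood apart across the group. It was the highest liver for 9 of the 10 genes, all but Myc, and for 7 of the 8 that passed the filter, beside 19.4% of all genes tested that were highest there. The median deviation of the 8 genes from their mean over the 6 livers was 0.87 (log2) in HCD replicate 1 and between -0.47 and -0.10 in the other livers. This liver alone had counts of Xist, the RNA of the inactive X chromosome (5032, against 0 in each of the other 5), and it had 0 counts of the Y-linked genes Ddx3y, Eif2s3y, Kdm5d and Uty, each of which had counts in every other liver. By these counts HCD replicate 1 reads as a female liver and the other 5 as male, so sex was mixed within HCD only. HCD replicates 2 and 3 had the same diet, and what sets replicate 1 apart from them was not tested. For diet differences that rest on this liver, sex, or whatever else sets it apart, and diet cannot be told apart. The biological coefficient of variation within diets, as edgeR estimated it, was 59.6% for Atf3, 56.9% for Myc, 53.6% for Egr1 and 47.1% for Fos, and 5.03%, 5.91%, 7.23% and 11.0% of all genes tested had one as large. It was 37.5% for Junb, 25.7% for Jun and 21.6% for Ier2, and lowest for Jund (16.0%, with 88.8% of genes as large).

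**Figure D3:**
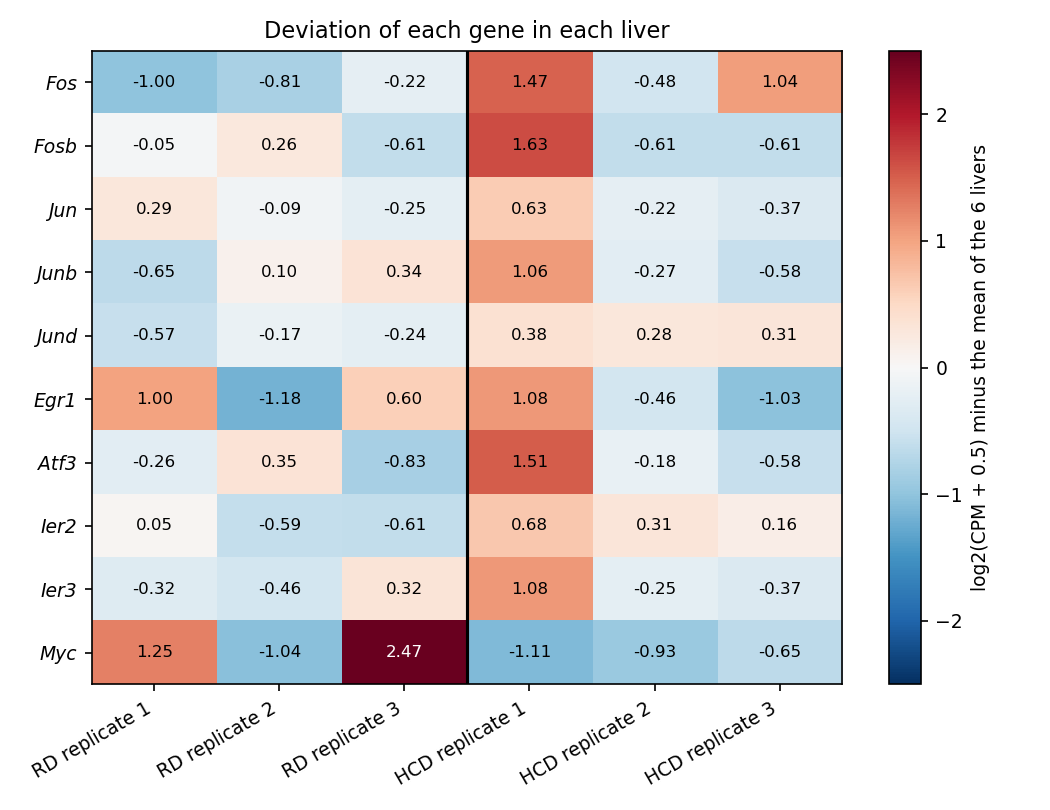
Deviation of log2(CPM + 0.5) of each gene from its mean over the 6 livers, with 1 column per liver and the diets parted by the black line. HCD replicate 1 is above 0 for every gene but Myc (-1.11), RD replicates 1 and 3 are at 1.25 and 2.47 for Myc, and Jund is above 0 in the 3 HCD livers (0.28 to 0.38).

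Likeness to Fos and to Myc, the other gene with the widest range, was measured over the 6 livers as the root mean square difference of centred log2(CPM + 0.5), as a description. The 5 tested genes nearest to Fos were Mgst3 (0.21), a microsomal glutathione transferase, Gypc (0.26), Gas1 (0.28), N4bp2l1 (0.29) and Nqo1 (0.31), a quinone reductase, where Fos itself varied by 0.93 about its mean. Mgst3 was at 6.34, 7.40 and 13.0 CPM with RD and at 42.6, 13.9 and 26.0 CPM with HCD, with HCD replicates 1 and 3 highest as for Fos. Nearest to Myc, which varied by 1.37, were Foxq1 (0.41), a forkhead factor, Phlda1 (0.62), Eif3j2 (0.63) and 1700018L02Rik (0.63). Foxq1 was at 53.1, 17.2 and 95.7 CPM with RD and at 13.3, 7.86 and 13.4 CPM with HCD. Among the 8 genes themselves the nearest pair was Jund and Ier2 (0.37) and the farthest Atf3 and Myc (1.94).

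Other genes of rapid responses and of the signaling before them were taken from lists written from general knowledge. Of 36 tested genes for effectors and feedback, edgeR called 4 higher and 1 lower with HCD, beside 1.95% and 1.32% of all genes tested, with a median log2 fold change of 0.49. DESeq2 called 6 of them higher and 3 lower, beside 4.01% and 3.19% of genes with an adjusted p. An unadjusted p under 0.05 was reached by 8 with a higher and 5 with a lower mean, beside 11.1% and 9.81%. Btg1, an antiproliferative gene, was at 28.8 to 68.0 CPM with RD and 117 to 228 CPM with HCD (log2 fold change 1.96, adjusted p = 0.0277). Gdf15, a stress-induced hormone that lowers food intake, was at 3.08 to 9.28 CPM and 18.5 to 47.1 CPM (2.48, adjusted p = 0.0453). Spry4, an inhibitor of growth factor signaling to MAP kinases, was at 3.86 to 6.34 CPM and 12.5 to 14.5 CPM (1.52, adjusted p = 0.0209). Nfkbia, the inhibitor that NF-κB induces, was the fourth and is named because it completes the count; it was at 19.1 to 25.0 CPM and 45.9 to 64.4 CPM (1.29, adjusted p = 0.013). Phlda1, an early gene of growth factor signaling, was the 1 that fell. It was at 163, 33.3 and 152 CPM with RD and at 14.7, 18.5 and 14.0 CPM with HCD (-2.88, adjusted p = 0.0282), low in RD replicate 2 as Myc was. Leaving out 1 liver ended the call of Btg1 without RD replicate 1, RD replicate 2 or HCD replicate 3, of Spry4 without RD replicate 2, RD replicate 3 or HCD replicate 3, of Nfkbia without RD replicate 1, of Gdf15 in 4 of 6 such fits (all but RD replicate 2 and HCD replicate 1) and of Phlda1 in 5 of 6 (all but RD replicate 2). The highest adjusted p in these fits was 0.122, 0.101, 0.0755, 0.163 and 0.106, in that order. The replicate block also ended the calls of Btg1 (adjusted p = 0.0549), Spry4 (0.0504), Phlda1 (0.0826) and Gdf15 (0.0887), both limma-trend fits those of Phlda1 and Gdf15, and the length trend that of Gdf15.

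Of 17 tested genes for other rapid response transcription factors edgeR called none in either direction, beside 3.27% of all genes tested. An unadjusted p under 0.05 was reached by 6 with a higher and 1 with a lower mean, beside 11.1% and 9.81% of all genes. DESeq2 called 4 higher and 1 lower, beside 4.01% and 3.19% of genes with an adjusted p. Their median log2 fold change was 0.52. The most abundant were Id2, Cebpb and Id3. Cebpb, a factor of the acute phase response and of regeneration, was at 64.3, 89.4 and 77.2 CPM with RD and at 86.8, 159 and 222 CPM with HCD (1.02, adjusted p = 0.11), so that HCD replicate 1, the highest liver for 9 of the immediate early genes, was the lowest HCD liver for Cebpb. Id2 and Id3, inhibitors of helix-loop-helix factors, had log2 fold changes of -0.13 and -0.03 (adjusted p = 0.861 and 0.974). Of 7 tested genes for other AP-1 family members none was called by edgeR or DESeq2, and an unadjusted p under 0.05 was reached by 1 of higher and 0 of lower mean. The most abundant, Mafg, Atf2 and Atf7, had log2 fold changes of 0.13, -0.16 and -0.19 (adjusted p = 0.599, 0.602 and 0.56).

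Of 28 upstream kinases and factors edgeR called 0 higher and 1 lower, beside 1.95% and 1.32% of all genes tested (median -0.14). At an unadjusted p under 0.05, 2 were higher and 6 were lower, beside 11.1% and 9.81% of all genes. DESeq2 called 0 higher and 2 lower, beside 4.01% and 3.19%. The gene that edgeR called lower was Stat3, the factor that carries interleukin-6 signals to the nucleus. It was at 161, 195 and 203 CPM with RD and at 90.1, 80.1 and 84.1 CPM with HCD (-1.14, standard error 0.14, adjusted p = 0.00948). Stat3 kept its call without any 1 liver except RD replicate 2 (adjusted p 0.0516). Egfr, the epidermal growth factor receptor, was the most abundant of the list, at 589, 954 and 592 CPM with RD and at 49.2, 345 and 136 CPM with HCD. Its livers did not overlap between the diets but varied among themselves (-2.01, standard error 0.59, adjusted p = 0.107), with the lowest value in HCD replicate 1. Map2k2, the MAP kinase kinase MEK2, differed by 0.38 on the log2 scale (adjusted p = 0.148). Of 10 tested partners and antagonists of Myc none was called by edgeR or DESeq2 (1 reached an unadjusted p under 0.05, with a higher mean), and the most abundant, Mxd4, Mlx and Mxi1, had log2 fold changes of -0.15, -0.16 and 0.56 (adjusted p = 0.527, 0.613 and 0.106).

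**Figure D4:**
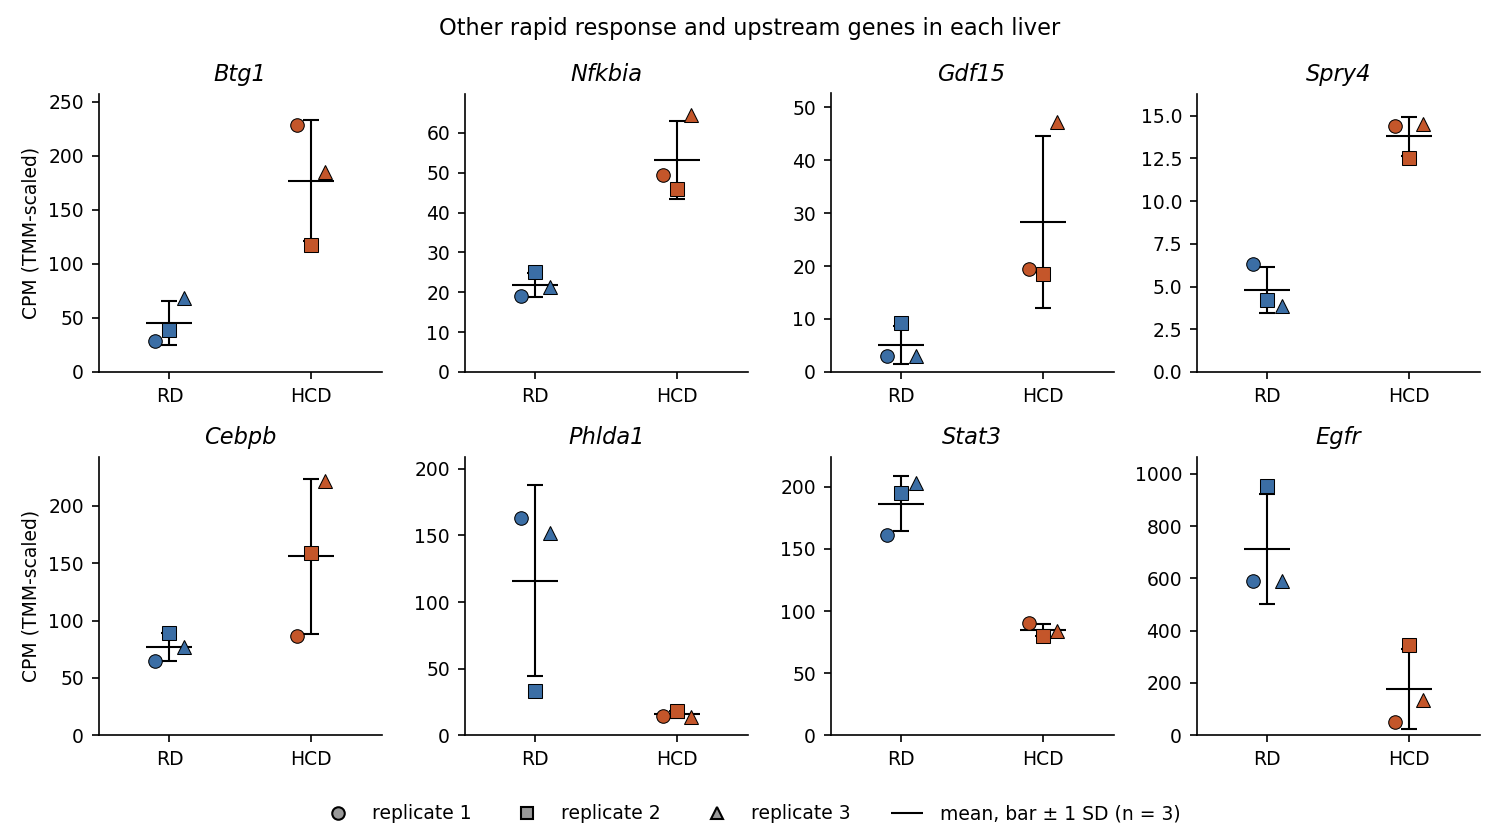
TMM-scaled CPM of 8 genes of the other rapid response and upstream lists in each liver, with 1 panel per gene and its own vertical axis from 0. Symbols are single livers, lines are means and bars are 1 SD (n = 3); the diets do not overlap for any gene shown except Cebpb, for genes mostly chosen as called or abundant and beside 27.6% of all genes tested, and Phlda1 is low in RD replicate 2 (33.3 CPM) and in all HCD livers.

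Markers of other cells of the liver and of tissue stress were read in the same libraries. In bulk RNA more cells of a type and more RNA per cell cannot be told apart. The counts below stand beside all genes tested, of which edgeR called 1.95% higher and 1.32% lower. DESeq2 called 4.01% higher and 3.19% lower of genes with an adjusted p. An unadjusted p under 0.05 was reached by 11.1% with a higher and 9.81% with a lower mean. The hepatocyte markers summed to 97556 to 128889 CPM with RD and 104165 to 147047 CPM with HCD, with 0 of 10 called by edgeR (2 higher at an unadjusted p under 0.05, and 2 higher by DESeq2). Of 11 Kupffer cell genes all had log2 fold changes above 0 and edgeR called 1 of them higher, Cd68 (1.24, adjusted p = 0.0277, not called in 5 of 6 fits that left out 1 liver, all but HCD replicate 2). DESeq2 called 5 of these Kupffer cell genes higher and 0 lower, and an unadjusted p under 0.05 was reached by 6, each with a higher mean. Their sum was 150.3 to 255 CPM with RD and 469, 420.0 and 221 CPM with HCD. The sums of 16 leukocyte genes, of which 9 were tested and all 9 had log2 fold changes above 0 (43.9 to 66.9 CPM with RD and 67.4 to 101 CPM with HCD), 11 sinusoidal endothelial genes (182 to 302 and 238 to 363 CPM), 12 stellate cell genes (267 to 286 and 286 to 436 CPM) and 6 cholangiocyte genes (37.6 to 93.2 and 65.9 to 98.6 CPM) held no called gene among those tested by edgeR. Log2 fold changes lay above 0 for 12 of 12 stellate cell, 9 of 11 endothelial, 5 of 6 cholangiocyte and 5 of 10 hepatocyte genes as well. At an unadjusted p under 0.05, 3 leukocyte, 2 endothelial, 3 stellate cell and 0 cholangiocyte genes were higher and none was lower. DESeq2 called 1 leukocyte gene higher and none of the endothelial, stellate cell or cholangiocyte genes. The Kupffer cell, leukocyte, endothelial and stellate cell sums were highest in HCD replicate 1, the liver highest for 9 of the immediate early genes, and their part in those values was not tested. Of 13 heat shock genes 12 had log2 fold changes below 0 (median -0.91) and 4 were called lower, Hspa1b (-3.48), Hsph1 (-1.50), Hspa8 (-1.08) and Dnaja1 (-0.94), with adjusted p of 0.0376, 0.0462, 0.0289 and 0.0421. DESeq2 called 6 of them lower, and 9 were lower at an unadjusted p under 0.05, with 0 higher by either. Dnaja1 is named because it completes the count, and each of the 4 lost its call in at least 3 of the 6 fits that left out 1 liver. The replicate block ended the calls of Hspa8, Dnaja1, Hsph1, Saa3 and Cd68 (adjusted p 0.0567, 0.0716, 0.0688, 0.0537 and 0.0657), both limma-trend fits those of Hspa1b and Hsph1, the length trend those of Dnaja1, Hsph1 and Cd68, and the GC trend those of Dnaja1 and Hsph1. Of 14 acute phase genes 7 had log2 fold changes above 0 and 7 below, and edgeR called 1 higher, Saa3 (2.24, adjusted p = 0.0295, not called without RD replicate 1, 2 or 3 or HCD replicate 3), and 0 lower. DESeq2 called 1 acute phase gene higher and 2 lower, and an unadjusted p under 0.05 was reached by 3 with a higher and 2 with a lower mean. Of 14 tested clock genes edgeR called none (at an unadjusted p under 0.05, 3 were higher and 5 were lower), and DESeq2 called 3 higher and 2 lower.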

How the data were processed

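Liver RNA of 3 RD-fed and 3 HCD-fed mice was sequenced with 1 library per mouse by Novogene. The authors deposited read counts per gene, whole numbers without normalization, and FPKM, fragments scaled by gene length and a library total that is not stated. The submitters' processing notes name STAR, HTSeq, DESeq2, edgeR and the build GRCm39 without versions or roles, and strand and library kit are not given in the sources used here. Columns of the authors' own fold changes and p-values were not used. Gene positions were joined by Ensembl identifier to GENCODE M21 on GRCm38 (20653 of 20673 identifiers), whose exon lengths matched those implied by counts and FPKM within 0.1% for 94.6% to 94.8% of genes with at least 100 counts. Promoter sequences are from RefSeq on GRCm38.p6.

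Diets were taken from sample titles and columns from library names. Counts totalled 13771630 to 23129576 with RD and 13935491 to 18545549 with HCD. Genes were filtered with filterByExpr, scaled with TMM (factors 0.886 to 1.07) and tested with edgeR 4.0.16 in R 4.3.3 (glmQLFit and glmQLFTest of diet, no covariates), with standard errors from the log2 fold change and the F statistic. The script was tested on simulated data. Alternatives were DESeq2 1.42.0, RLE factors, library sizes alone, no filter, a mean minimum of 50 counts, limma 3.58.1 (trend) on log2(FPKM + 1) and log2(FPKM + 0.1), offsets for a loess trend (span 0.5) with gene length or, added after seeing the data, GC content, a replicate block, and each liver left out with the tested genes kept. Permutation tests used all 20 assignments of 3 of 6 livers. P-values weigh the difference between diets against the spread between these livers. That spread includes the HCD liver that alone had Xist counts. Counts between livers of 1 diet differed far beyond sampling noise (chi-square per degree of freedom 30.3 to 157.1).

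The genes and lists were chosen with earlier results of these data known. Named are all 10 genes; in each list up to 3 called genes of largest rise and 3 of largest fall, with the 3 most abundant where fewer than 3 were called in a rapid response, upstream or Myc partner list; the 5 genes nearest to Fos and to the other tested gene with the widest range; and the sex-chromosome genes. Of the lists, Ptgs2 and Ly6g were not analysed here, and some items are not reported here. No transcript of another gene matched one of the 10 over at least 200 bases at 90% identity, by minimap2 2.31, except the antisense genes Junos (of Jun) and Gm11175 (of Jund).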

Additional observations from a re-analysis of the deposited data

How the results depend on the processing

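The 1 immediate early gene called higher became 3 with DESeq2 and at an unadjusted p under 0.05, and 0 with library sizes alone, both limma-trend fits, the length trend, the GC trend (chosen after seeing the data) and the replicate block; it was 0 to 1 with 1 liver left out, where the 1 was Fos without HCD replicate 2. The 0 called lower became 1 (Myc) without a filter on low counts and at an unadjusted p under 0.05, and was 0 to 1 with 1 liver left out. Of the other rapid response genes, 4 higher and 2 lower became 10 and 6 with DESeq2, 8 and 4 without a filter, and 1 and 1 under the block; the 2 lower became 1 in both limma-trend fits, and leaving out 1 liver gave 1 to 6 higher and 1 to 2 lower. Over all genes, 255 higher and 173 lower became 554 and 441 with DESeq2, 138 and 113 with the length trend, 71 and 65 under the block and 1453 and 1286 at an unadjusted p under 0.05. The 255 higher became 158 with library sizes alone, and the 173 lower became 285 without a filter and 115 on log2(FPKM + 0.1). With 1 liver left out, 17 to 229 were higher and 22 to 158 lower, fewest without RD replicate 1. The share of calls that were higher was 59.6% in the main fit and 49.5% with library sizes alone, 43.6% without RD replicate 1 and 40.4% without RD replicate 2, where fewer calls were higher than lower; it was highest, 66.6%, on log2(FPKM + 0.1). The cause of these shifts was not tested. The sign turned for Jun without RD replicate 3 (-0.03) and HCD replicate 1 (-0.30), Junb without HCD replicate 1 (-0.41), Atf3 without HCD replicate 1 (-0.25), and Egr1 without RD replicate 1 (0.19) and HCD replicate 3 (0.10). The replicate numbers did not pair the livers: same-numbered deviations from the diet means correlated at -0.076, 0.088 and -0.041 across genes, and not every liver correlated best with the liver of its own number. The block fit gave Jund 0.66 (adjusted p = 0.0965). Left-out livers gave Jun -0.30 to 0.27, Junb -0.41 to 0.56, Egr1 -1.16 to 0.19 and Atf3 -0.25 to 1.41. Atf3 could not be fitted at a mean of at least 50 counts, which it did not reach.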
